A study of Mus musculus with 6 samples.

Results

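Ferritin and iron handling genes were followed in BV2 cells, an immortalised microglial line of the mouse, after knockdown of Gch1. The 10 genes cover iron storage (Ftl1, Fth1, Ncoa4), uptake and endosomal transport (Tfrc, Slc11a2, Slc11a1), release from the cell and from heme (Slc40a1, Hmox1) and iron sensing (Ireb2, Aco1). They were found by matching Ensembl identifiers, without version, to GENCODE M21, and all 10 were among the 12327 genes of the deposited table and among the 12222 genes tested. The list was chosen by the difference in Ftl1 FPKM between knockdown and control in these same libraries, and the other 9 genes were added for their function. The difference in Ftl1 is therefore given as a description without a test.

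The study compared 3 libraries of cells given an adenovirus with a hairpin RNA against GCH1 for 48 hours with 3 libraries labelled negative control. The labels leave unclear whether the controls received a virus, since one text calls them an adenoviral control and another wild type. RNA was total RNA after removal of ribosomal RNA, and the values are FPKM (fragments per length of transcript and per aligned fragments), a scale that corrects for transcript length. The labels do not say whether libraries within a group are separate cultures, and the p-values then reflect only library-to-library spread, possibly technical. In bulk RNA from such cells, fewer expressing cells and less RNA per cell cannot be told apart.

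Iron enters most cells as transferrin bound to its receptor, is reduced and exported from the endosome, and is then used, stored in ferritin or released through ferroportin. Ferritin is a hollow shell of heavy chains, which oxidise iron, and light chains, which help to lay down the mineral core. Microglia, like other macrophages, take up iron and heme from their surroundings and keep much of it in ferritin. The iron regulatory proteins IRP1 and IRP2, made from Aco1 and Ireb2, bind a hairpin called the iron responsive element when iron is scarce. Bound near the start of a messenger, as in the ferritins, they block its translation. Bound in the 3′ UTR of Tfrc, they protect the messenger from decay.

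The library labels were checked on the targeted gene. Gch1 was at 6.89, 7.22 and 7.23 FPKM in the controls and at 3.20, 2.93 and 3.43 FPKM in the knockdown libraries, and the groups did not overlap. Library sums were 224291 to 230292 FPKM. Aligned sequence per library, estimated from the spacing of low values, was 5.25 to 5.57 Gb (gigabases) in the controls and 6.32 to 7.61 Gb after knockdown, so depth and group cannot be told apart. Of 14 markers of microglia and macrophages, 13 were among the genes analysed. Cd68 reached 478 to 498 FPKM in the controls and Tyrobp 253 to 275 FPKM, while Tmem119, a marker of resting microglia, stayed at 0.489 to 0.652 FPKM. None of 6 astrocyte and 6 neuron markers was among them, and of 6 oligodendrocyte and 6 endothelial markers there was 1 each. Cnp was at 4.89 to 5.52 FPKM in the controls and 5.10 to 5.80 FPKM after knockdown, and Vwf at 4.27 to 4.715 and 4.723 to 5.30 FPKM, barely without overlap (limma BH adjusted p = 0.764 for Cnp and 0.487 for Vwf). Their part in the results was not tested. No listed microglial marker passed the test, and Cd68 was at 448 to 471 FPKM after knockdown.

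The iron responsive element was looked for in the annotated transcripts (GENCODE M21, GRCm38). The search asked for a C, 5 bases, the loop CAGTGN, and 5 bases that pair with the first 5, with at least 4 of 6 pairs in the stem below, on the transcript strand only. Of 21901 protein-coding genes, 47 (0.215%) held such a match, and 7 held it in the 5′ UTR. There were 4 such members: Ftl1, Fth1 and Slc40a1 in the 5′ UTR and Tfrc in the 3′ UTR. The windows are shown because they show where the element lies in the storage, export and uptake messengers, and each is written 5′ to 3′ with the loop in capitals.
Ftl1 (chr7:45459779-45459807, minus strand): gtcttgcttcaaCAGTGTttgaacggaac
Fth1 (chr19:9982732-9982760, plus strand): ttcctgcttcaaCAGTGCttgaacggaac
Slc40a1 (chr1:45925465-45925493, minus strand): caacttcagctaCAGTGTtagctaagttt
Tfrc, window 1 (chr16:32631219-32631247, plus strand): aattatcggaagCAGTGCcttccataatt
Tfrc, window 2 (chr16:32631598-32631626, plus strand): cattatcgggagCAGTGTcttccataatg
Tfrc, window 3 (chr16:32631663-32631691, plus strand): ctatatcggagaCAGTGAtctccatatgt
Tfrc, window 4 (chr16:32631710-32631738, plus strand): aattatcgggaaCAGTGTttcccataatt
The Ftl1 and Fth1 windows were identical at 26 of 29 positions, whereas Ftl1 and Slc40a1 shared 13. A match describes the letters only and does not show binding. No window of Slc11a2 met these strict pairing rules.

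The 10 members spanned a wide range of levels. Fth1 was the second most abundant of all genes in the controls, at 4740 ± 64.5 FPKM, and Ftl1 ranked 16, at 887 ± 23.1 FPKM (SD, n = 3 each). Hmox1 followed at 124 ± 1.36 FPKM, then Slc11a1 at 39.9 ± 0.68, Tfrc at 18.7 ± 1.69, Ncoa4 at 16.6 ± 0.66, Ireb2 at 12.4 ± 1.32, Slc11a2 at 8.94 ± 0.15, Slc40a1 at 8.11 ± 0.68 and Aco1 at 5.30 ± 0.25 FPKM. Only one pair of neighbours in this order, Tfrc and Ncoa4, had control libraries that overlapped. Even the lowest member was well covered: with its coding transcript of 3832 bases, Aco1 corresponded to 106 to 157 kb of aligned sequence per library.

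**Figure D1:**
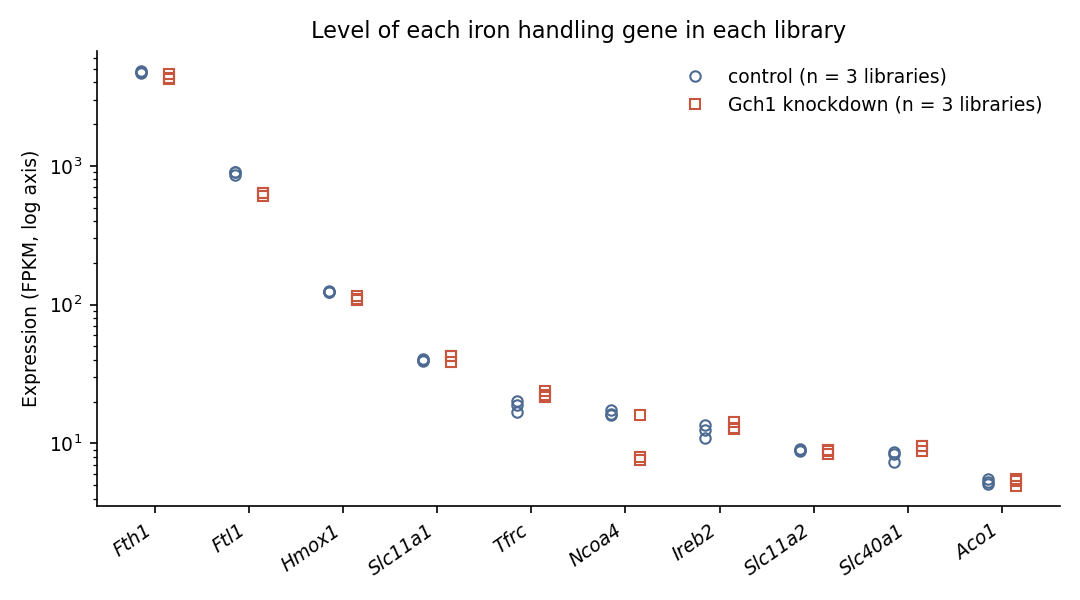
Expression of each gene in FPKM on a log axis, with the genes ordered by their control mean. Circles are the 3 control libraries and squares the 3 knockdown libraries; Fth1 lies near 4740 FPKM and Aco1 near 5.30 FPKM in the controls, and the knockdown libraries of Ncoa4 split.

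Across the whole table, 10 of 12222 genes (0.0818%) passed limma's test at a Benjamini-Hochberg (BH) adjusted p of 0.05. Among the members 1 passed, Ftl1, which chose the list, so nothing is read from that count. It was 0 without control library 1 or knockdown library 3, and without knockdown library 2 the 1 member that passed was Ncoa4. Apart from Ftl1, whose separation is part of how the list was chosen, the 3 knockdown libraries lay on one side of all 3 controls in 5 of 9 members, against 18.4% of all genes tested. Below control were 3 of these (Fth1, Ncoa4, Hmox1), against 8.36% of all genes, and above control 2 (Tfrc, Slc40a1), against 9.99%. Members were chosen with earlier results of these data known, so these shares are descriptions. The median log2 fold change, knockdown minus control on the scale of log2(FPKM + 1), was -0.01 over the members and 0.01 over all genes.

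**Figure D2:**
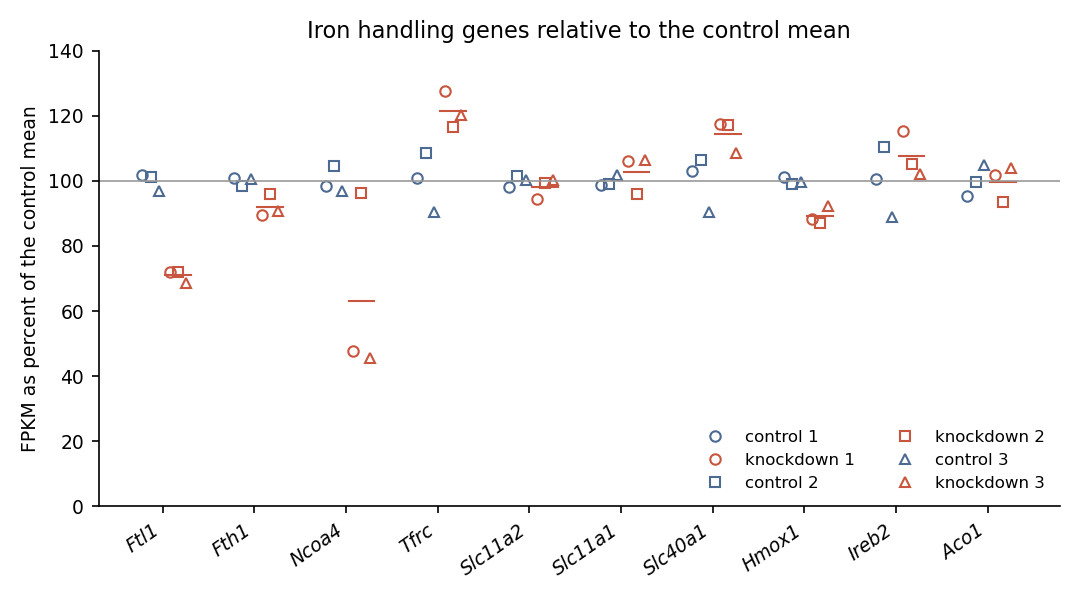
FPKM of each gene in each library as a percent of that gene's control mean, with genes ordered by role. Blue symbols are controls, red symbols knockdown libraries and the red lines the knockdown means; all 3 knockdown libraries of Ftl1 lie near 70.9% of control, and those of Ncoa4 lie apart from each other.

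The ferritin light chain messenger was lower in every knockdown library. Ftl1 (ENSMUSG00000050708.16; chromosome 7, 45457944 to 45459884, minus strand) had 904, 897 and 861 FPKM in the controls against 640, 639 and 609 FPKM after knockdown. The lowest control thus stood far above the highest knockdown library, and the knockdown mean was 70.9% of control. The log2 difference was -0.49 (SE 0.04). It stayed between -0.52 and -0.47 over the 16 alternative settings. The GC content of Ftl1 transcripts, 58.1%, was higher than that of 89.9% of the genes tested. With the trend over GC content and length removed the difference was also -0.49.

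The heavy chain differed less. Fth1 (ENSMUSG00000024661.6; chromosome 19, 9980598 to 9985098, plus strand), the ferroxidase subunit, was at 4781, 4666 and 4773 FPKM in the controls and at 4238, 4556 and 4298 FPKM in the knockdown libraries. Groups did not overlap, but knockdown library 2 came close to control library 2. The mean was 92.1% of control, with a log2 difference of -0.12 (SE 0.05, limma BH adjusted p = 0.436, which did not pass). Quantile normalization, which gives every library the same set of values, brought the difference to -0.03, and without knockdown library 2 it was -0.15.

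The balance of the subunit messengers shifted with the light chain. The ratio of Fth1 to Ftl1, in FPKM, was 5.29, 5.20 and 5.54 in the controls and 6.62, 7.13 and 7.05 after knockdown. Means were 5.34 ± 0.18 and 6.93 ± 0.27 (SD, n = 3 each), with no overlap. Together the pair made up 2.43% to 2.50% of the FPKM sum in the controls and 2.15% to 2.26% in the knockdown libraries. Both quantities contain Ftl1, whose difference chose the list, so they are descriptions without a test.

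**Figure D3:**
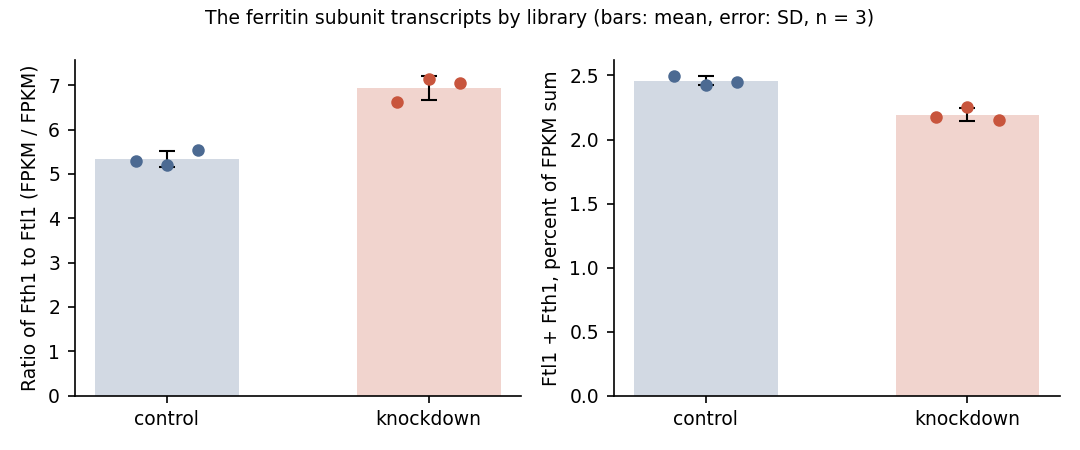
Left, ratio of Fth1 to Ftl1 in FPKM; right, Ftl1 and Fth1 together as a percent of the library's FPKM sum. Points are libraries, bars the mean and error bars the SD (n = 3 each); the ratio is higher and the share lower in all 3 knockdown libraries.

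Ftl1 has close copies that could exchange reads with it. Of the 100-base windows of its main coding transcript, 60.4% also occur in another annotated transcript, nearly all of them in Ftl1-ps1, an annotated copy on chromosome 13. Ftl1-ps1 was at 108, 97.8 and 109 FPKM in the controls and at 90.0, 107 and 96.8 FPKM after knockdown, with overlapping groups. Its log2 difference was -0.10 (SE 0.07, 95% interval -0.27 to 0.07, limma BH adjusted p = 0.614). The copy was thus not shown to differ, and its level was far below that of Ftl1 in every library. For Fth1 the share of such windows was 0.964%. How the authors' counting assigned shared reads is not given in the sources used here, so the value of Ftl1 is uncertain to that extent.

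Ncoa4, the cargo receptor that carries ferritin to the lysosome for breakdown, split the knockdown libraries. It was at 16.4, 17.4 and 16.1 FPKM in the controls and at 7.95, 15.98 and 7.58 FPKM in knockdown libraries 1, 2 and 3. Libraries 1 and 3 were under 50% of the control mean, while library 2 fell just short of the lowest control. The log2 difference was -0.69 with a wide error (SE 0.24, 95% interval -1.26 to -0.12, limma BH adjusted p = 0.379). Without knockdown library 2 it was -1.01 (limma BH adjusted p = 0.00684). Over the other alternatives it ranged from -0.74 with a pseudocount of 0.1 to -0.51 without knockdown library 3. Ncoa4 (chromosome 14, 32159865 to 32179855, plus strand) also has a copy: 48.7% of the 100-base windows of a coding transcript of 3343 bases occur in Gm6768, a processed pseudogene on chromosome 12 that was not analysed here. The part of shared reads in the split was not tested.

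Among the genes of uptake, the transferrin receptor messenger Tfrc (chromosome 16, 32608920 to 32632794, plus strand) was at 18.9, 20.3 and 16.9 FPKM in the controls and at 23.8, 21.7 and 22.5 FPKM after knockdown. All 3 knockdown libraries were above all controls, at a mean of 121% of control. With a log2 difference of 0.27 (SE 0.07, 95% interval 0.11 to 0.43) it did not pass over all genes (limma BH adjusted p = 0.292). Tfrc transcripts have a low GC content, 41.9%, and removing the GC and length trend gave 0.22 (adjusted p = 0.243). It ranged from 0.20 without control library 3 to 0.33 without control library 2.

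Endosomal and phagosomal iron transporters were near their control levels. Slc11a2, which moves iron out of the endosome, was at 8.78, 9.08 and 8.95 FPKM in the controls and at 8.45, 8.87 and 8.95 FPKM after knockdown, with a 95% interval of the log2 difference from -0.13 to 0.08. Slc11a1, its relative in the phagosome membrane of macrophages, was at 39.5, 39.6 and 40.7 FPKM in the controls and at 42.3, 38.3 and 42.5 FPKM after knockdown. Its interval was -0.08 to 0.15. In both genes the groups overlapped, and the limma BH adjusted p was 0.843 for Slc11a2 and 0.803 for Slc11a1.

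The exporter ferroportin, Slc40a1 (chromosome 1, 45908068 to 45926523, minus strand), had 8.37, 8.62 and 7.34 FPKM in the controls and at 9.53, 9.50 and 8.80 FPKM in the knockdown libraries. Groups did not overlap, yet the gap between control library 2 and knockdown library 3 was small. The mean was 114% of control, with a log2 difference of 0.18 (SE 0.07, 95% interval 0.02 to 0.33, limma BH adjusted p = 0.395). It was 0.11 without control library 3, in which Tfrc, Slc40a1 and Ireb2 were each at their lowest.

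Hmox1, heme oxygenase, which frees iron from heme (chromosome 8, 75093621 to 75100589, plus strand), was at 125, 123 and 123 FPKM in the controls and at 109, 108 and 114 FPKM after knockdown. Each knockdown library was below each control, at a mean of 89.2% of control. The difference of -0.16 on the log2 scale (SE 0.04, 95% interval -0.25 to -0.08) had the smallest p of the members other than Ftl1 but did not pass over all genes (limma BH adjusted p = 0.261). Over the alternatives it lay between -0.19 and -0.15, with adjusted p from 0.22 to 0.503.

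The iron sensors were not shown to differ. Ireb2, which encodes IRP2, was at 12.4, 13.6 and 11.0 FPKM in the controls and at 14.3, 13.0 and 12.6 FPKM after knockdown, with overlapping groups (log2 difference 0.10, 95% interval -0.09 to 0.29, limma BH adjusted p = 0.655). The difference of Ireb2, whose transcripts have a GC content of 41.2%, was 0.05 with the GC and length trend removed, and it ranged from 0.03 without control library 3 to 0.17 without control library 2. Aco1, which encodes IRP1, the cytosolic aconitase, was at 5.06, 5.28 and 5.56 FPKM in the controls and at 5.39, 4.96 and 5.51 FPKM after knockdown. Its 95% interval was -0.14 to 0.14 (adjusted p = 0.985), and its sign changed with the setting.

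**Figure D4:**
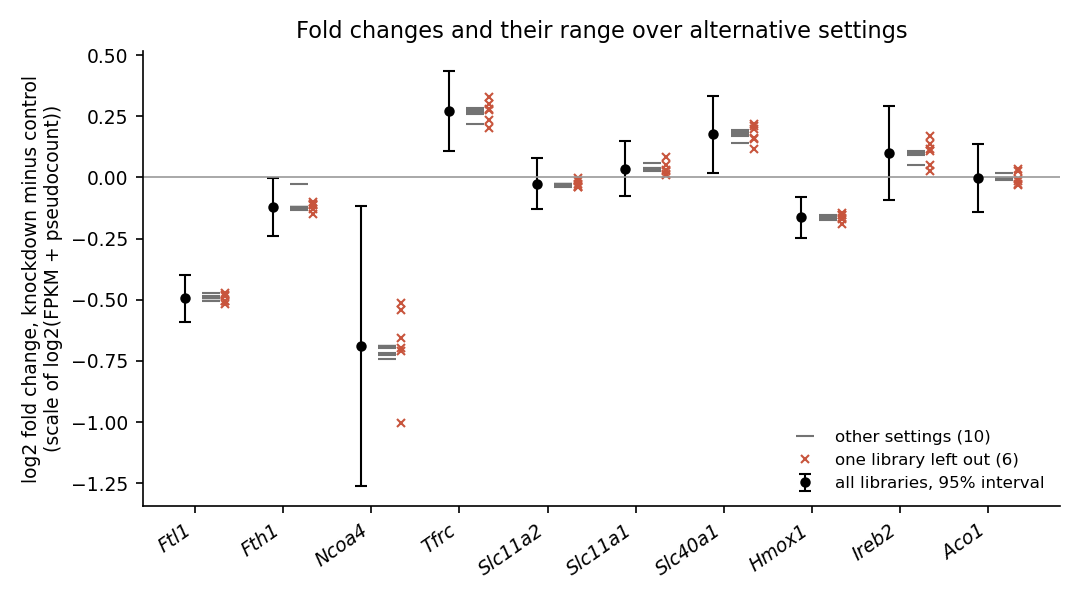
Log2 fold change of each gene, knockdown minus control, with its 95% interval from all 6 libraries (black), beside the values from 10 other settings (grey) and with each library left out in turn (red crosses). Ncoa4 has the widest interval and moves most, reaching -1.01 without knockdown library 2, while Ftl1 stays between -0.52 and -0.47.

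A wider set of genes was then read from the same fit, taking in 105 genes of storage, uptake, release, heme, sensing and iron-sulfur cluster assembly. Outside the members, 72 were tested and 0 passed limma's threshold. At an unadjusted p under 0.05 there were 4 of them (5.56%), against 11.3% of all genes tested, and their median log2 fold change was -0.01. Groups did not overlap in 12 of the 72 (16.7%), a share near the 18.4% of all genes tested.

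In heme synthesis 0 of 11 tested genes passed, with 7 below control. Protoporphyrinogen oxidase Ppox was at a log2 difference of -0.25 (SE 0.07) and the second enzyme of the pathway, Alad, at -0.17 (SE 0.05). Neither passed, at adjusted p of 0.318 for Ppox and 0.356 for Alad (limma, BH). Both, named for the smallest p of the list, had knockdown libraries below all controls, as did 8.36% of all genes tested. In either direction, groups did not overlap in 3 of the 11, against 18.4% of all genes tested. Ppox was at 3.74, 4.05 and 3.42 FPKM in the controls and 3.23, 2.88 and 2.81 FPKM after knockdown. For heme uptake, breakdown and export, 0 of 10 passed, and the lysosomal heme transporter Slc48a1 was at -0.11 (SE 0.04).

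In the uptake list, which includes Tfrc and the Slc11 transporters, 0 of 12 tested genes passed. The zinc and iron transporter Slc39a14 was at 6.73, 6.54 and 6.86 FPKM in the controls and at 5.92, 6.23 and 5.83 FPKM after knockdown (log2 difference -0.14, SE 0.05, limma BH adjusted p = 0.375). Lrp1, a scavenging receptor that also takes up heme carried by hemopexin, was at -0.08 (SE 0.06). Of the release genes, 2 of 7 were tested, Slc40a1 and the heme exporter Flvcr1, which was at 0.04 (SE 0.06). Among the storage genes that are not members, the iron chaperone Pcbp2 was at -0.04 (SE 0.03) and the autophagy receptor Tax1bp1 at 0.03 (SE 0.05).

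Among regulators of iron sensing, 0 of 12 passed, with 6 on each side of control. The smallest p values outside the members were those of Skp1a, a subunit of the ubiquitin ligase that removes IRP2 (log2 difference 0.10, SE 0.04), and the prolyl hydroxylase Egln2 (0.15, SE 0.09). Iron import and iron-sulfur assembly in mitochondria had 12 of 19 genes above control and none past the test. Cytosolic assembly genes and iron chaperones had 0 of 12 past the test, with log2 differences from -0.23 to 0.11 and 7 genes below control. The smallest p values were those of Ciao2a (log2 difference 0.08) and Ciapin1 (log2 difference 0.11).

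Ferroptosis is an iron-dependent death by lipid peroxidation, and BH4, the product of the pathway that GCH1 begins, is known to oppose it. Of 18 tested genes of this list 1 passed, the targeted gene itself. The cystine transporter Slc7a11 was at 40.3, 42.3 and 34.9 FPKM in the controls and at 44.1, 43.0 and 43.6 FPKM after knockdown (log2 difference 0.15, SE 0.07, limma BH adjusted p = 0.466). In the list of NRF2 target genes, to which both ferritins and Hmox1 belong, 10 of 18 tested genes were above control. Over all genes tested, 6476 of 12222 were above control. None of the list but Ftl1, which chose the members, passed. The peroxiredoxin gene Prdx1, with the smallest p of that list outside the members, was at 0.14 (SE 0.05, limma BH adjusted p = 0.387). A part of NRF2 was not tested. Of 9 tested messengers with a described iron responsive element, none apart from Ftl1 passed, and 3 were above control. Sdhb, a subunit of succinate dehydrogenase, was at -0.07 (SE 0.04).

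Promoters were searched for TGACNNNGC on both strands, the core of the antioxidant response element that NRF2 binds. RefSeq windows (GRCm38.p6) of 250 bases before to 50 after the start site were at hand for 7 members, Ftl1, Fth1, Ncoa4, Tfrc, Slc11a1, Ireb2 and Aco1. One of their 11 windows held a match, TGACCTGGC at position -44 from a start site of Ncoa4. Of all 32851 windows 12.4% held one. Sequence outside these 300 bases was not searched, so a window without a match does not show that a gene lacks the element. No window was at hand for Slc40a1, Slc11a2 and Hmox1, so these were not searched.

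Finally, the genes whose levels over the 6 libraries were most like those of the ferritins were listed, among 6931 other protein-coding genes with a mean of at least 5 FPKM. For Ftl1 these were Tarm1, Tmem230, Hspb7, Agap1 and Ebi3, with Pearson's r from 0.992 to 0.986. For Fth1 they were Samd1, Dtd1, Pip5k1c, Usp36 and Ddah1, with r from 0.982 to 0.974. Among the members, Ftl1 was most like Hmox1 (r = 0.921) and Fth1 most like Ncoa4 (r = 0.932), and Tfrc ran opposite to both (-0.812 and -0.899). These values rest on the same 6 libraries that differ by group and depth, and are descriptions. Fth1 and Ncoa4 were both highest of the knockdown group in knockdown library 2, at 4556 and 15.98 FPKM. Their r without that library was not computed.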

How the data were processed

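RNA of 6 libraries, 3 per group, was analysed from 1 deposited table of 12327 genes, grouped by the genotype label. The table names no unit. FPKM, computed by the authors, is the unit read from the deposited values. Value times transcript length falls on multiples of a step in genes with 1 transcript, which gave the depth estimate. Of low values, 54.9% to 67.5% lay within 0.1 of a step, against 20% by chance for a step fixed in advance. The step used was the one with the highest such share in a scan, so the 20% understates chance for it. The submitters' processing notes name HISAT2, StringTie, edgeR and the human build hg38, although identifiers are mouse genes. Which annotation and strand setting were used is not given in the sources. No gene of the table has both group means under 0.501 FPKM.

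Symbols and positions came from GENCODE M21 (GRCm38), which matched 12306 identifiers. Genes reaching 0.5 FPKM in 3 or more libraries were tested with limma 3.58.1 (R 4.3.3) on log2(FPKM + 1), with a mean-variance trend, no covariate and BH adjustment over all genes; it was tested on simulated data. Some named genes are not reported here. Ndor1, with 2 rows, was left out of the lists. Named genes are the members, Gch1, ferritin copies, the 2 other genes of each list with the smallest p, any called gene of a list, and, as a description, the 5 genes most like each ferritin. Members and lists were chosen with earlier results of these data known. The effects of 16 alternatives are given in the closing section. Python 3.11.15, numpy 2.4.6, pandas 2.3.3 and scipy 1.17.1 were used.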

Additional observations from a re-analysis of the deposited data

How the results depend on the processing

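Alternatives concerned the libraries (each one left out, replicate block), the scale (quantile normalization, median-of-ratios scaling, GC and length trend removed, pseudocount 0.5 or 0.1), the filter (none, or mean FPKM of 5) and limma itself (robust moderation, no mean-variance trend). With a library left out, 6 to 18 genes passed (18 without control library 2, 6 without knockdown library 2 or 3), and 0 to 1 members and 0 to 1 wider iron genes. The count of members and of wider iron genes was 0 without control library 1 or knockdown library 3. Under the replicate block, 0 genes passed, hence 0 members and 0 wider iron genes (1330 genes at an unadjusted p under 0.05). The targeted gene, Gch1, then missed the threshold at 0.0604 (limma, BH adjusted p). Libraries of the same number had deviations from their group means that correlated at 0.095, 0.059 and 0.094, which was every library's highest correlation with the other group; this is a hint in the data only, as the design states no pairing. Of 160 comparisons of members with their reported values, 4 lost the threshold (all Ftl1) and 1 gained it (Ncoa4). Ftl1 chose the list, so neither its passing nor these 4 losses are read as a test. The sign changed in 3 comparisons, all for Aco1, which was not called. The cause of these changes was not tested. Depth is known only as an estimate.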

Other observations

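Globin genes Hba-a1 and Hbb-bs, markers of red cell precursors and large users of iron, appeared in the table although the cells are microglial. Hba-a1 was at 1.46 FPKM in control library 2 and at 0 to 0.175 FPKM in the other 5 libraries, and Hbb-bs was at 2.52 FPKM in control library 2 and listed at 0 elsewhere. Neither was tested. The microglial marker Itgam ranged from 7.22 to 31.1 FPKM among the controls and from 7.10 to 23.0 FPKM among the knockdown libraries, with overlapping groups.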
